A study of Mus musculus with 8 samples.

Results

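The genes described here are 38 genes of the actin cytoskeleton and of focal adhesions, chosen as a list of symbols and found by exact symbol among the 34478 genes of the expression table. All 38 were found, and all 38 had a mean of at least 10 normalized counts, the minimum for testing, which 15888 genes reached. Expression was measured by polyA RNA-seq in 4 primary cell lines from murine pancreatic ductal adenocarcinoma (PDAC), called #1, #3, #5 and #10. Each line was treated with the vehicle DMSO or, for 48 h, with the MEK inhibitor trametinib (MEKi), and each line and treatment gave 1 library, 8 in all. The comparison asks how these genes respond when MEK, the kinase that activates ERK, is inhibited.

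All 4 lines, and so both groups, came from a genetically engineered mouse model that carried Ptf1awt/Cre and Trp53loxP/loxP, in which a Cre under the control of the pancreatic gene Ptf1a deletes Trp53. The lines grew in high-glucose DMEM with serum. Trametinib was given at the IC50 of each line, so the concentration may differ between lines, and the labels give no concentration, no age of the animals and no statement on whether the lines came from separate mice. A limma p-value here rests on the spread of the response over these 4 lines, since each line gave 1 library per treatment. The fit draws this spread towards that of other genes of similar level. The p-values and SE of limma therefore do not measure the spread of the 4 lines alone. The library totals lay between 30680091 and 36385719 normalized counts, with an estimated 29300000 to 45900000 reads behind them. As a check of the treatment labels, the ERK target genes Dusp6 and Etv4 were lower with MEKi in 4 of 4 lines, with log2 fold changes of -2.51 and -5.92 (limma, adjusted p = 1.2e-04 and 2.0e-04). The duct keratins Krt7, Krt8, Krt18 and Krt19 were abundant in every library. Cdh1, another epithelial marker, had 19630 to 28487 normalized counts and did not pass the test (log2 fold change -0.02, limma adjusted p = 0.88). Epcam, also an epithelial marker, was listed at 0 in 6 of the 8 libraries and reached 10.4 and 3.75 normalized counts in line #3.

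Actin filaments are built from actin monomers and slide against bipolar filaments of non-muscle myosin II, which consist of heavy chains and of essential and regulatory light chains. Tropomyosins, caldesmon and calponins lie along the filament and govern which proteins may bind it, while filamins and alpha-actinins crosslink filaments into networks and bundles. At the cell membrane the bundles end in focal adhesions, where talin and vinculin connect integrins to actin, and where LIM-domain proteins such as zyxin gather under tension. Many of these genes are known targets of serum response factor (SRF) and its actin-sensing cofactors.

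The promoters of the members are shown first because SRF binds a short, well defined sequence, the CArG box, that can be looked for in them. RefSeq promoter windows of GRCm38.p6, which run from 250 bases before to 50 bases after a transcription start, were matched by symbol for 34 of the 38 members (47 windows); no window was used for Actb, Parva, Pxn and Tgfb1i1. A CArG box on either strand was present in 7 of the 34 members, or 20.6%, namely Actg1, Cnn2, Fhl1, Fhl2, Ldb3, Myl6 and Vcl. Of all 27025 genes with a window, 1.81% held one. In the 4 promoters printed here, each from a different role group, 5′ to 3′ on the strand of the gene, the capitals mark the CArG box.
Actg1: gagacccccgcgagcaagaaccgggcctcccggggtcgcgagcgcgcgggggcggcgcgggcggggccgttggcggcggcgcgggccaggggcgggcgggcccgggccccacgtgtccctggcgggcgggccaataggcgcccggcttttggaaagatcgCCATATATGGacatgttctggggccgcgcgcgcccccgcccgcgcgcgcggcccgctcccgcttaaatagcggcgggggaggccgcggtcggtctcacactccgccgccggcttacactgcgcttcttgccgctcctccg
Cnn2: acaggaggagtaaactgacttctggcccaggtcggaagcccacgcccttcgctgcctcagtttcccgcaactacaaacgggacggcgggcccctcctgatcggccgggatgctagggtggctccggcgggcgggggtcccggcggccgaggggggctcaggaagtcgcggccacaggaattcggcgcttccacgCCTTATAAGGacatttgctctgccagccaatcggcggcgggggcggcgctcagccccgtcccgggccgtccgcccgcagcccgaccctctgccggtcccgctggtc
Ldb3: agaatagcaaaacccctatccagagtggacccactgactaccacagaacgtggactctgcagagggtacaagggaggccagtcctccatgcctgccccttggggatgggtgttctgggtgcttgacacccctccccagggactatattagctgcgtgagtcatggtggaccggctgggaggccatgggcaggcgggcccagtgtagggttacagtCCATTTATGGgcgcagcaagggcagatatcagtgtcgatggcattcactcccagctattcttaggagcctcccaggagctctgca
Vcl: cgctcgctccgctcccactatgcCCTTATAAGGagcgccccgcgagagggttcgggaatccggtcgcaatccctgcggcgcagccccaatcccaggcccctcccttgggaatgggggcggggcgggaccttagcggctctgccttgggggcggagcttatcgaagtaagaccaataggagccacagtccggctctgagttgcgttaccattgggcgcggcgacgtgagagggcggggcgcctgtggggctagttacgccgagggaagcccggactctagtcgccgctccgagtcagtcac
The windows lie at chr11:120348446-120348745 on the minus strand (Actg1), chr10:79988350-79988649 on the plus strand (Cnn2), chr14:34588632-34588931 on the minus strand (Ldb3) and chr14:20929148-20929447 on the plus strand (Vcl). The box began at position -90 relative to the start in Actg1, at -56 in Cnn2, at -35 in Ldb3 and at -227 in Vcl. Cnn2 and Vcl carried the same box, CCTTATAAGG, whereas Actg1 carried CCATATATGG and Ldb3 CCATTTATGG. Of the other 3 genes, Myl6 carried CCTTATATGG at -50, Fhl1 CCTAAAATGG at -102, and Fhl2 had 2 start sites with CCAAAAAAGG at -96 and CCTTATATGG at -31. The hexamer bound by TEAD factors, CATTCC on either strand, was found in 10 of 34 members (29.4%, against 16.6% of all genes), and the AP-1 box, TGANTCA on either strand, in 6 (17.6%, against 8.97%). No motif contains another. These matches describe letters in the windows, and no binding was measured in these libraries.

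Of the 38 members, 28 rose and 3 fell with MEKi, and 7 did not pass the test (limma on log2(normalized count + 1) with the cell line as a block, Benjamini-Hochberg adjusted p under 0.05 over 15888 genes). By the same rule, 27.3% of all genes tested rose and 25.6% fell, against 73.7% and 7.89% of the members. The members were chosen with earlier results of these data known, so these shares describe them and are no independent test. Ldb3 and Synpo2 reached the minimum mean only through their MEKi libraries, so that their calls were nearly fixed, and of the other 36 members 26 rose and 3 fell. Most members are abundant, and of the 6656 genes whose mean reached 1000 normalized counts 25.2% rose and 39.6% fell. The median log2 fold change over the members was 0.82, and it was similar in each line, at 0.73 in #1, 0.80 in #3, 0.91 in #5 and 0.78 in #10. Over all genes tested the median was 0.07, and over the abundant genes it was -0.13. In 29 members the level was higher with MEKi in 4 of 4 lines, and in 4 members it was lower in 4 of 4 lines. Of all 15888 genes tested, 5514 were higher and 4938 lower in 4 of 4 lines, and of the 6656 abundant genes 2019 and 3026. The members summed to 2.03%, 1.20%, 1.98% and 1.61% of all normalized counts with DMSO in lines #1, #3, #5 and #10, and to 3.25%, 1.86%, 3.44% and 2.34% with MEKi. The share was higher with MEKi in each of the 4 lines. When the pairing of libraries by line was ignored, 15 members rose and 1 fell, where 13.9% and 14.8% of all genes did. Of the 31 calls, 16 held under every alternative that tested the gene, those of Ldb3 and Synpo2 among them. How many calls over all genes held in this way is not given here. As these are bulk libraries, fewer cells of a type and less RNA per cell cannot be told apart.

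**Figure D1:**
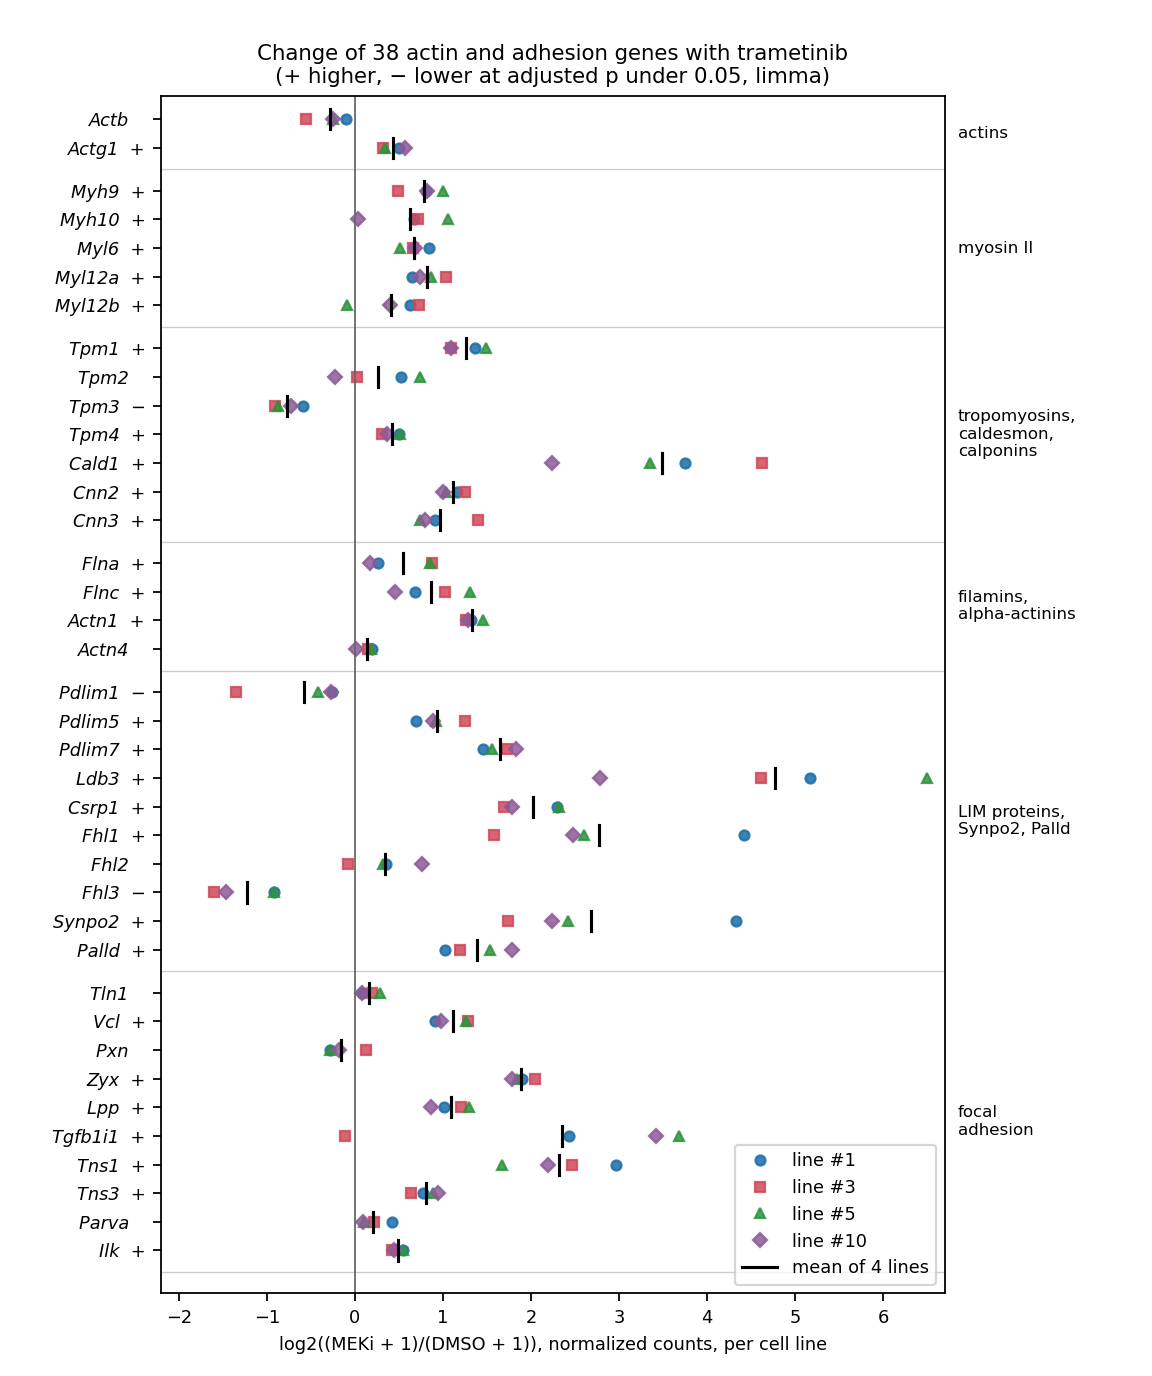
Log2 fold change of each of the 38 members with MEKi, on the log2(normalized count + 1) scale, with 1 point per cell line and a black bar at the mean of the 4 lines; + and − after a name mark adjusted p under 0.05. The points of most genes lie to the right of 0, with Ldb3, close to undetected with DMSO, and Cald1 (mean 3.49) farthest. Tpm3, Pdlim1, Fhl3 and Actb, of which Actb did not pass the test, lie to the left of 0 in all 4 lines.

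In most members the DMSO and MEKi libraries overlapped. In 10 members every MEKi library was above every DMSO library, namely Cald1, Cnn3, Flnc, Actn1, Pdlim7, Ldb3, Csrp1, Palld, Zyx and Tns3. This happened in 15.1% of all genes tested. Ldb3 was tested only through its MEKi libraries, and without it and Synpo2 the count was 9 of 36. No member had every MEKi library below every DMSO library, which was so for 16.2% of all genes. The other 28 members overlapped, although 21 of these passed the paired test.

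Of the 2 actin genes, Actg1 rose and Actb did not pass the test. Actg1 (chr11:120345690-120348542, positions on GRCm38), the gene of cytoplasmic gamma-actin, had 123413, 60036, 128364 and 83932 normalized counts with DMSO and 174645, 75104, 162593 and 124864 with MEKi, in the order of lines #1, #3, #5 and #10, which is used throughout. It was higher with MEKi in each line, and line #3 was lowest in both groups. Its log2 fold change was 0.43 ± 0.12 (SE of the limma fit over 4 lines, limma adjusted p = 0.024), and the call was lost without line #1, #5 or #10. Actb (chr5:142903115-142906754), the gene of cytoplasmic beta-actin, had 130992, 87229, 148911 and 127209.7 counts with DMSO and 122445, 59566, 125505 and 107127 with MEKi. Each MEKi value was below its DMSO partner, but the estimate of -0.29 ± 0.13, with a 95% interval of -0.60 to 0.03, did not pass (adjusted p = 0.11). The share of Actb in the counts of both actins was 56.2% ± 4.24 (SD, n = 4) with DMSO and 43.8% ± 2.05 with MEKi, and the groups of libraries did not overlap, at 51.5 to 60.2% and 41.2 to 46.2%. Of the 31-base words of Actg1 and Actb transcripts, 40.2% and 23.5% also occur in transcripts of other genes. The genes that shared most were Gm12715, Gm8399 and Actg-ps1 for Actg1, and Lrrc58, Gm15725 and Gm4750 for Actb. Reads may have been shared out between each actin gene and such other genes.

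**Figure D2:**
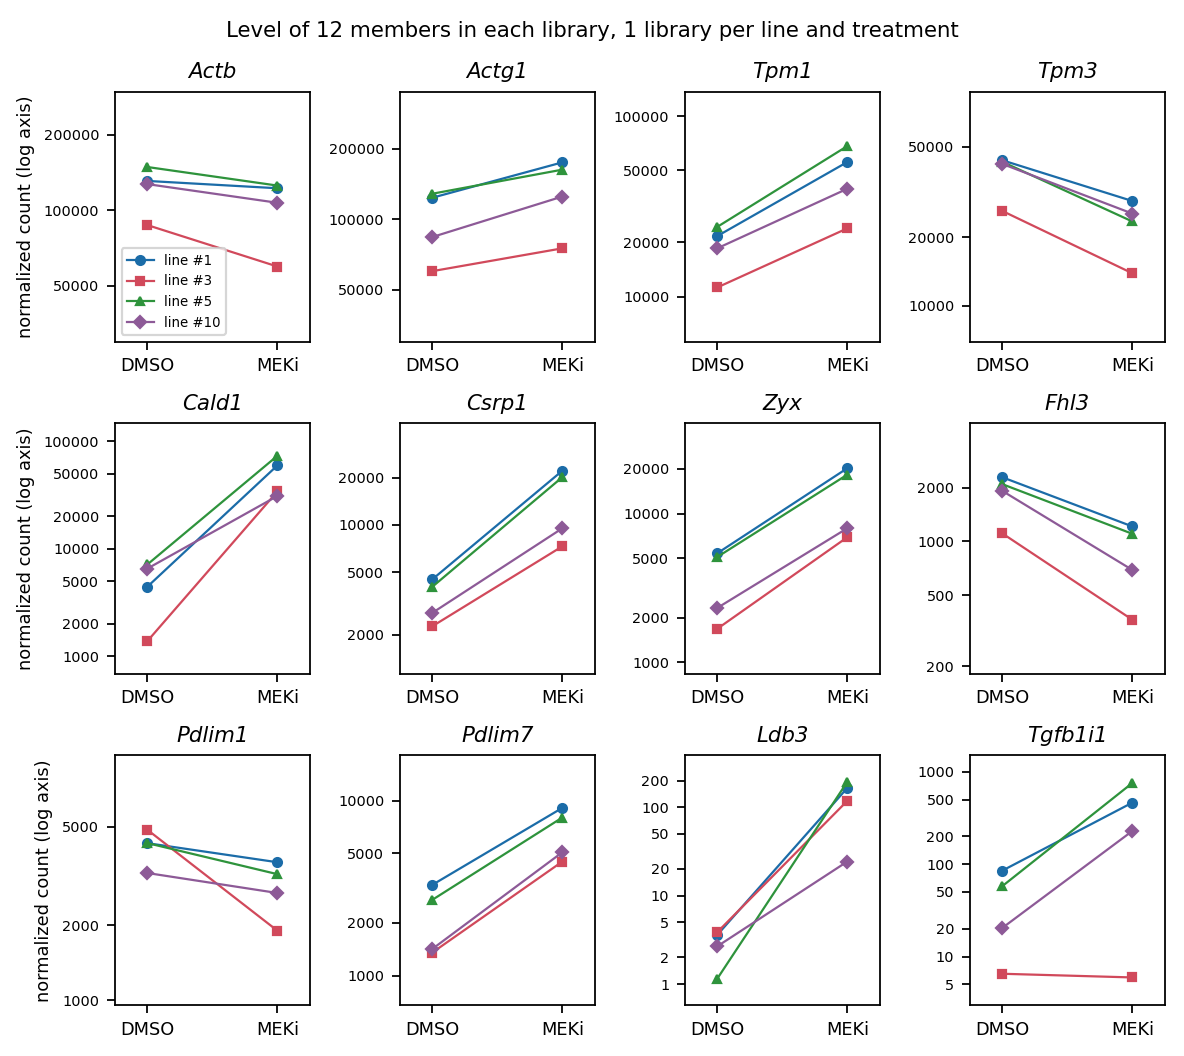
Normalized counts (log axis, scaled for each gene) of 12 members in the DMSO and the MEKi library of each line, with a line joining the pair; there is 1 library per point and no error bar. Actg1, Tpm1, Cald1, Csrp1, Zyx, Pdlim7 and Ldb3 rise in all 4 lines, the MEKi values of Actb, Tpm3, Fhl3 and Pdlim1 lie below their DMSO values in all 4, and Tgfb1i1 stays at 6.51 and 5.94 counts in line #3.

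The 5 genes of non-muscle myosin II rose, with a median log2 fold change of 0.67. Myh9 (chr15:77760587-77842175), which encodes the heavy chain of myosin IIA, went from 46948, 28269, 60794 and 31976 to 82102, 39768, 121496 and 56421 normalized counts. The level rose in each line, and the fold was close to 2 in line #5 alone, where the log2 fold change was 1.00. Myh10, the heavy chain of myosin IIB, had 6946, 6805, 2497 and 9468 counts with DMSO and 11077, 11173, 5191 and 9711 with MEKi. Here line #10, the highest with DMSO, hardly moved (log2 fold change 0.04), while the other lines rose by 0.67 to 1.06. The essential light chain Myl6 rose in each line, with log2 fold changes of 0.84, 0.66, 0.51 and 0.68, and the regulatory light chain Myl12a with 0.65, 1.03, 0.86 and 0.74. Its neighbour Myl12b, which encodes a nearly identical regulatory light chain, rose in 3 lines and was -0.09 in line #5. The limma estimates were 0.78 ± 0.12 for Myh9, 0.62 ± 0.16 for Myh10, 0.67 ± 0.09 for Myl6, 0.82 ± 0.10 for Myl12a and 0.41 ± 0.14 for Myl12b, with adjusted p = 0.0022, 0.016, 0.0014, 0.00095 and 0.046. Myl12a and Myl12b overlap on the same strand of chromosome 17 and share 17.7% and 21.3% of their 31-base words with other genes, mostly with each other, so their separate values are uncertain. The calls of Myh10 and Myl12b were each lost when 1 line was left out (Myh10 without #1 or #5; Myl12b without #1, #3 or #10).

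Of the 7 genes of tropomyosins, caldesmon and calponins, 5 rose, Tpm3 fell and Tpm2 did not pass the test. Tpm1 (chr9:67022590-67049406), whose longer products are typical of stress fibres, had 21645, 11241, 24332 and 18515 counts with DMSO and 55623, 23877, 68164 and 39559 with MEKi. Each line rose by more than 1 on the log2 scale, and the estimate was 1.26 ± 0.11 (adjusted p = 3.9e-04). Tpm3 (chr3:90072649-90100902) had 43672, 26152, 42999 and 42082 counts with DMSO and 28922, 13924, 23515 and 25469 with MEKi. It fell in each line, by 0.77 on the log2 scale (SE 0.10, adjusted p = 0.0012), and the groups overlapped only because the DMSO library of line #3 lay below the MEKi library of line #1. As a share of the counts of all 4 tropomyosin genes, Tpm1 made up 24.7% ± 1.93 (SD, n = 4) with DMSO and 48.7% ± 4.67 with MEKi, and Tpm3 51.4% ± 3.00 and 25.1% ± 4.40. Tpm4 rose slightly, with log2 fold changes of 0.50, 0.31, 0.51 and 0.37 and an adjusted p of 0.0072. Tpm2 did not pass the test, with log2 fold changes of 0.53, 0.03, 0.73 and -0.23 and an adjusted p of 0.23. Each tropomyosin gene makes several isoforms, and the values are sums over them; 27.0% of the 31-base words of Tpm3 also occur elsewhere, mostly in the copy Tpm3-rs7.

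Caldesmon had the largest response among the abundant members. Cald1 (chr6:34598500-34775473), whose product binds actin and tropomyosin and restrains myosin, had 4426, 1379.9, 7129 and 6528 counts with DMSO and 59488, 34092, 73108 and 30897 with MEKi. The groups did not overlap, and line #3, the lowest with DMSO, passed line #10 with MEKi. The log2 fold change was 3.49 ± 0.34 (adjusted p = 5.4e-04), an 11.3-fold rise, with 3.75, 4.63, 3.36 and 2.24 in the 4 lines. The calponins Cnn2 and Cnn3, which bind actin and are found on stress fibres, rose together. Cnn2 rose from 6906, 2367, 6250.4 and 4079 to 15424, 5638, 12784 and 8159 counts, and Cnn3 from 10001, 3945, 7938 and 8474 to 18826, 10396, 13233 and 14740.2. Both were close to doubled, with estimates of 1.11 ± 0.08 and 0.96 ± 0.13 (adjusted p = 2.9e-04 and 0.0012), and the CArG box of Cnn2 printed above has no counterpart in the Cnn3 window.

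Of the 4 crosslinkers, the genes of alpha-actinin 1 and of both filamins rose, whereas that of alpha-actinin 4 did not pass the test. Actn1 (chr12:80167547-80260371), whose product bundles stress fibre filaments and sits in focal adhesions, went from 24004, 13104, 23796 and 17454 to 60086, 31453, 65122 and 42432 counts. The log2 fold changes of the 4 lines lay within 1.26 to 1.45, and the estimate was 1.33 ± 0.09 (adjusted p = 2.3e-04). Actn4, its close relative, had 28708, 19019, 36429 and 19375 counts with DMSO and 32726, 21140.1, 41386 and 19586 with MEKi. Its estimate of 0.14 ± 0.09 had a 95% interval of -0.08 to 0.35 (adjusted p = 0.25), which lies below the interval of Actn1, 1.11 to 1.55. The filamin genes Flna and Flnc rose by 0.54 ± 0.17 and 0.86 ± 0.15 (adjusted p = 0.032 and 0.0034). Both moved most in lines #3 and #5, with log2 fold changes of 0.26, 0.88, 0.85 and 0.17 for Flna and 0.68, 1.02, 1.31 and 0.45 for Flnc. The call of Flna was lost when line #5 was left out.

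Of the 10 genes of LIM-domain proteins, synaptopodin 2 and palladin, 7 rose and Pdlim1 and Fhl3 fell. Pdlim7 (chr13:55495795-55513676), also called Enigma, which binds tropomyosin through its PDZ domain, rose from 3297, 1353, 2707 and 1418 to 9078, 4481, 7998 and 5064 counts. Each MEKi library was above each DMSO library, and the estimate was 1.65 ± 0.09 (adjusted p = 1.3e-04). Pdlim5, of the same family, rose by 0.94 ± 0.11 (adjusted p = 8.5e-04). Pdlim1, also of this family, went the other way, from 4298, 4868, 4301 and 3257 to 3599.5, 1906, 3222 and 2705 counts. The fall by 0.57 on the log2 scale (SE 0.19, adjusted p = 0.041) was uneven, at -1.35 in line #3 and between -0.42 and -0.26 in the other 3 lines, and the call was lost when line #1, #5 or #10 was left out.

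Csrp1 (chr1:135720061-135752232), a LIM-only protein that binds alpha-actinin and zyxin, rose from 4492, 2258, 4027 and 2747 to 22094, 7291, 20114 and 9498 counts. The libraries did not overlap and the estimate was 2.02 ± 0.13, a 4.07-fold rise (adjusted p = 2.0e-04). The FHL genes, which encode LIM-only proteins that act at adhesions and in the nucleus, differed from one another. Fhl1 rose from 77.4, 19.02, 53.9 and 26.2 to 1672, 59.1, 332 and 150.0 counts, most in line #1, with an estimate of 2.77 ± 0.43 (adjusted p = 0.0023). Fhl2 did not pass, with log2 fold changes of 0.35, -0.08, 0.32 and 0.76 and an adjusted p of 0.079, but it passed when line #3 was left out. Fhl3 (chr4:124700701-124708611) fell from 2284, 1108, 2089 and 1916 to 1212, 364, 1102 and 692 counts, by 1.23 on the log2 scale (SE 0.15, adjusted p = 0.00097), and it was lower in each line. Fhl1 and Fhl2 hold a CArG box in their windows, and Fhl3 holds none.

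Ldb3 and Synpo2, which encode Z-disc proteins of striated muscle, were close to undetected without the inhibitor. With DMSO, Ldb3 (chr14:34526603-34588682) had 3.60, 3.86, 1.15 and 2.67 normalized counts, which correspond to an estimated 5, 4, 1 and 3 reads, and with MEKi it had 165, 118, 194 and 24.3. In line #5 the ratio was 156 with a 95% counting interval of 27.8 to 6198, and in line #10, where the rise was smallest, it was 8.36 with an interval of 2.55 to 43.3. Synpo2 had 3.52, 1.53, 2.05 and 8.05 counts with DMSO and 90.2, 7.43, 15.4 and 41.9 with MEKi, and in line #3 the ratio of 7.22 rested on 1 and 8 reads (95% interval 0.968 to 320.4). The intervals are exact binomial ones and cover counting error only. The fitted change of these 2 genes depends on the value of 1 added before taking logarithms. It is therefore printed only with the checks of the processing, beside the changes found with other added values. The plot of the log2 fold changes of all members draws it as well. With DMSO means of 2.82 and 3.79, both genes were tested only through their MEKi libraries. Palld, the gene of the stress fibre scaffold palladin, rose from 4185, 3696, 3464 and 1356 to 8513, 8457, 10031 and 4683 counts, by 1.38 ± 0.14 (adjusted p = 5.5e-04).

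Of the 10 focal adhesion genes, 7 rose, and those of talin, paxillin and alpha-parvin did not pass the test. Zyx (chr6:42349630-42360213), the gene of zyxin, had 5420.2, 1682, 5119 and 2324 counts with DMSO and 20247, 6951, 18327 and 7989 with MEKi. The libraries did not overlap, the log2 fold changes of the 4 lines lay within 1.78 to 2.05, and the estimate was 1.89 ± 0.08 (adjusted p = 9.0e-05). Its relative Lpp rose by 1.09 ± 0.10 (adjusted p = 4.4e-04), with 1.01, 1.20, 1.30 and 0.87 in the 4 lines. Vcl (chr14:20929398-21033676), which encodes vinculin, rose from 16658, 8769, 12046 and 7611 to 31259, 21372, 28896 and 15041 counts, with an estimate of 1.11 ± 0.10 (adjusted p = 4.7e-04). The Vcl promoter is among those printed above. Each of these genes was higher with MEKi in all 4 lines.

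The tensins, which bind actin and integrin tails, both rose, Tns1 from the lower level per length, with 20.8 normalized counts per kb of exon with DMSO against 780.6 for Tns3. Tns1 went from 306, 106, 612 and 309.7 to 2402, 591, 1945 and 1422 counts, by 2.32 ± 0.21 (adjusted p = 4.1e-04), and Tns3 by 0.81 ± 0.09 (adjusted p = 7.5e-04). Tgfb1i1 (chr7:128246812-128255699), whose product Hic-5 is a paxillin-related LIM protein, had 85.1, 6.51, 57.8 and 20.4 counts with DMSO and 463, 5.94, 756 and 228 with MEKi. Lines #1, #5 and #10 rose by 2.43, 3.69 and 3.42 on the log2 scale, and line #3 had 6 estimated reads in each library. Its estimate was 2.36 ± 0.61 (adjusted p = 0.016), and the call was lost without line #1, #5 or #10. Ilk, the integrin-linked pseudokinase, rose by 0.49 ± 0.08 (adjusted p = 0.0023).

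Tln1, Pxn and Parva, of which talin binds integrin tails directly, gave estimates of 0.16 ± 0.09, -0.16 ± 0.10 and 0.21 ± 0.09, with 95% intervals of -0.05 to 0.36, -0.39 to 0.08 and -0.01 to 0.42 (adjusted p = 0.17, 0.22 and 0.090). Tln1 and Parva were higher in 4 of 4 lines by small amounts, of 0.08, 0.20, 0.28 and 0.08 for Tln1 and 0.42, 0.22, 0.10 and 0.09 for Parva. Pxn was lower in 3 lines and higher in line #3, and it passed, as lower, when line #3 was left out. All 3 intervals lie below that of Vcl, 0.87 to 1.35.

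The balance within families was then compared for 11 pairs of related genes, as the log2 fold change of one gene minus that of the other in each line. In 9 of the 11 pairs it moved the same way in 4 of 4 lines. With 4 lines the exact two-sided sign-flip permutation test cannot give a p below 0.125, and each of the 9 pairs had this value (adjusted p = 0.153 over 11 pairs), so none could pass the threshold. The change was -1.19 ± 0.08 (SD, n = 4) for Actn4 against Actn1, the narrowest spread of all pairs. It was 2.22 ± 0.60 for Pdlim7 against Pdlim1, 2.43 ± 1.12 for Fhl1 against Fhl2, 1.04 ± 0.46 for Tpm2 against Tpm3, 0.83 ± 0.11 for Tpm1 against Tpm4, 0.72 ± 0.15 for Actg1 against Actb and 0.32 ± 0.14 for Flnc against Flna. For Tns3 against Tns1 it was -1.51 ± 0.63, and for Myl12b against Myl12a -0.41 ± 0.39. Myh10 against Myh9 (-0.16 ± 0.44, exact p = 0.75) moved up in 2 lines and down in the other 2, and Cnn2 against Cnn3 (0.15 ± 0.20, exact p = 0.25) up in 3 of 4.

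**Figure D3:**
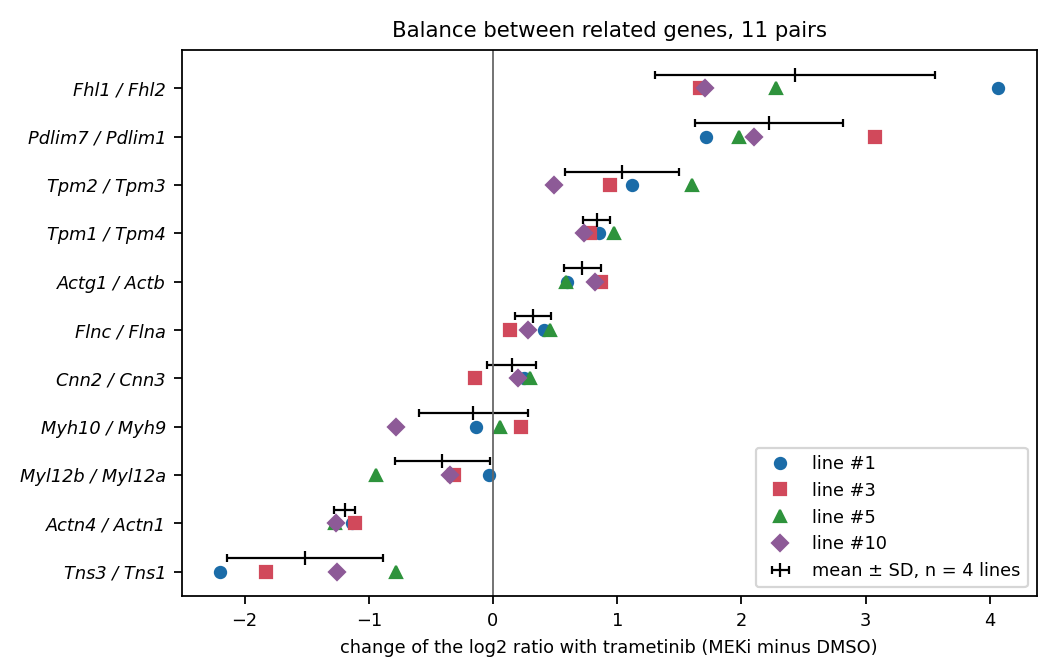
Change with MEKi of the log2 ratio between 2 related genes, for 11 pairs, with 1 point per cell line and the mean ± SD over 4 lines above it. In 9 pairs all 4 points lie on one side of 0, most tightly for Actn4 against Actn1 (between -1.27 and -1.11), while Cnn2 against Cnn3 and Myh10 against Myh9 straddle 0.

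The lines also differed from one another, whichever the treatment. Of the 38 members, 29 differed between the 4 lines (limma F test in the same fit, adjusted p under 0.05), where 27.6% of all genes tested and 32.0% of those with a mean of at least 1000 did. Without the mean-variance trend in the fit the count of members was 16, where 11.8% of all genes and 6.61% of the abundant genes differed. Line #3 had the lowest DMSO level in 30 of the 38 members and the lowest MEKi level in 27. Among all genes tested it was lowest with DMSO in 30.7%, and among the abundant genes in 37.3%. Line #1 was highest with DMSO in 17 members and line #5 in 14. The 30 members include Zyx at 5420.2, 1682, 5119 and 2324 counts (line adjusted p = 0.0011), Cnn2 at 6906, 2367, 6250.4 and 4079 (adjusted p = 0.0019) and Tpm4 at 23139, 9977, 19331 and 15292 (adjusted p = 0.0039). The total of the DMSO library of line #3 was 33385299 normalized counts and those of the other DMSO libraries 34690006 to 36385719. Pdlim1 had its highest DMSO level in line #3, and Myh10 its lowest in line #5.

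**Figure D4:**
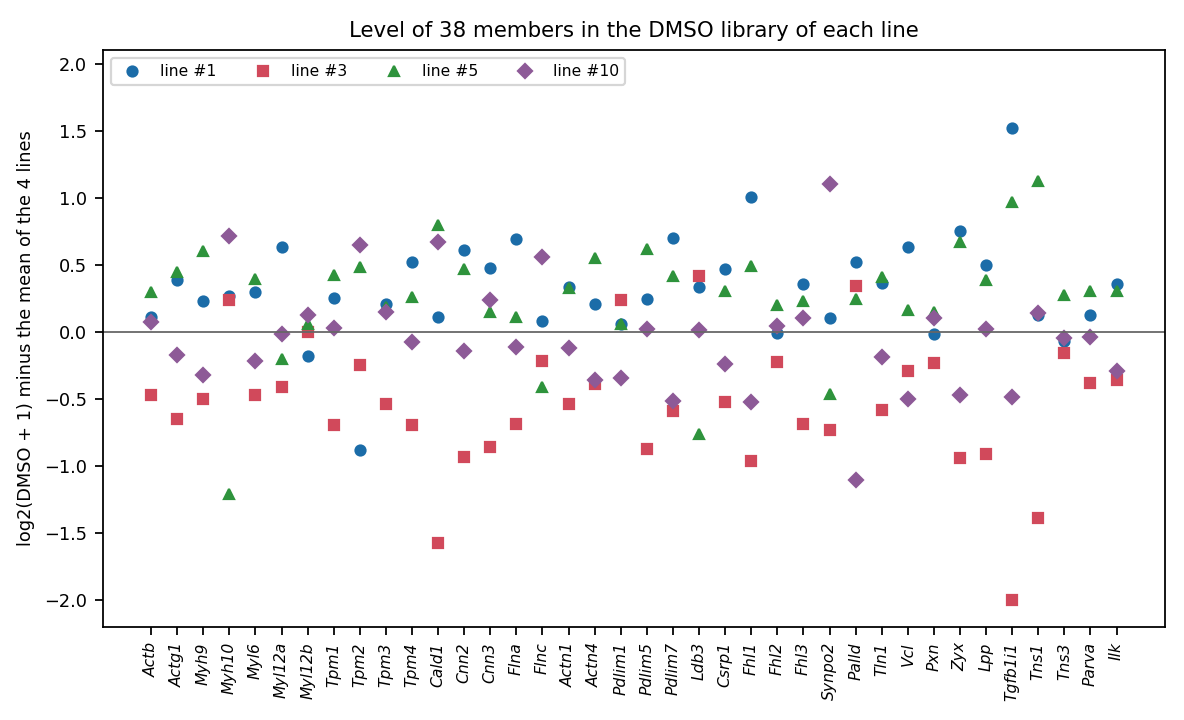
Level of each of the 38 members in the DMSO library of each line, as log2(normalized count + 1) minus the mean of the 4 lines, with 1 library per point and no error bar. The squares of line #3 are the lowest point in 30 of the 38 genes, with Tgfb1i1 and Cald1 among those farthest down.

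Other genes of the same machinery were taken from 5 lists, of which 112 of 115 genes were tested, and 41 of these rose (36.6%) and 26 fell (23.2%), beside 27.3% and 25.6% of all genes tested; 4 of the lists are described here. The lists, too, were chosen with earlier results of these data known. Of the 112, 6 were tested only through their MEKi libraries, and of the other 106 genes 36 rose and 26 fell. The counts were 22 and 10 when the pairing by line was ignored, beside 13.9% and 14.8% of all genes. When line #1, #5 or #10 was left out 15 to 17 genes fell, beside 20.8 to 21.3% of all genes. With libraries scaled to equal totals 16 fell, beside 20.7% of all genes, and with quantile normalization 14 fell, beside 26.4%. Among 32 further focal adhesion kinases and adaptors 13 rose (40.6%) and 8 fell (25%), with a median log2 fold change of 0.26. Lims2, a PINCH adaptor that binds integrin-linked kinase, rose from between 57.4 and 125 counts with DMSO to between 672 and 1788 with MEKi (3.66 ± 0.24, adjusted p = 2.1e-04), and the adaptors Fblim1 and Kank1 rose by 2.66 and 2.45. Tns4, Tln2 and Parvb, relatives of the tensin, talin and parvin members, had log2 fold changes of -1.76, -1.64 and -0.78 (adjusted p = 9.2e-04, 0.0012 and 0.0076).

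Of 31 genes of actin nucleation and filament turnover, 10 fell and 4 rose, and the median log2 fold change was -0.19. Among these, 28 had a mean of at least 1000 normalized counts. The shares that fell and rose, 32.3% and 12.9%, stand beside 39.6% and 25.2% of the abundant genes and 25.6% and 27.3% of all genes tested. Pfn1, the gene of the monomer-binding protein profilin, went from between 35289 and 39623 counts with DMSO to between 14064 and 24339 with MEKi (-0.88 ± 0.14, adjusted p = 0.0025). Arpc1b, a subunit of the Arp2/3 complex, and Eps8, a capping and bundling protein, had log2 fold changes of -1.04 and -0.77. The severing protein gene Gsn (gelsolin) rose from between 1761 and 4006 counts with DMSO to between 7212 and 18878 with MEKi (2.24 ± 0.10, adjusted p = 9.0e-05), and Tmsb4x (thymosin beta 4) and Cttn (cortactin) rose by 0.69 and 0.53.

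Among 18 tested genes of further crosslinkers and LIM proteins, 8 rose (44.4%) and 2 fell (11.1%), beside 27.3% and 25.6% of all genes tested. In this list 11 genes had a mean of at least 1000 normalized counts, and of all such abundant genes 25.2% rose and 39.6% fell. Synpo, encoding synaptopodin, rose from between 219 and 631 counts with DMSO to between 2899 and 9191 with MEKi (3.77 ± 0.20, adjusted p = 1.1e-04), and Pdlim4 rose by 3.13, whereas Csrp2 and Lasp1 had log2 fold changes of -0.60 and -0.41. Lmcd1 had 84.5, 1.04, 55.8 and 12.5 counts with DMSO, under 3 reads in line #3, and 762, 74.1, 648 and 62.5 with MEKi, and was called higher.

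Of 11 tested genes of smooth muscle contraction and SRF with its cofactors, 9 rose and none fell. Of these 9, Actg2, Cnn1, Myl9, Myh11 and Myocd had DMSO means under 10 and reached the minimum mean only through their MEKi libraries, so that a call as higher was nearly fixed for them. Of the other 6 genes 4 rose, where 27.3% of all genes tested did. Acta2, the gene of smooth muscle actin, had 61.2, 15.5, 31.02 and 6.71 counts with DMSO and 12674, 336, 11819 and 384 with MEKi. Tagln (transgelin) had 34.1, 24.2, 13.7 and 14.9 and 8879.8, 112, 11538 and 182, so that lines #1 and #5 reached levels far above those of lines #3 and #10 for both genes. Cnn1, the third calponin gene, went from between 1.21 and 3.93 counts with DMSO to between 256 and 1977 with MEKi and Myl9, the smooth muscle regulatory light chain, from between 1.45 and 7.02 to between 134 and 922. Some DMSO libraries of both genes were at or under 3 reads, and their fitted changes are plotted but not printed. The estimates for Acta2 and Tagln were 6.55 and 5.82 (adjusted p = 5.6e-04 and 0.0066). Srf itself did not pass, at -0.15 ± 0.16 (adjusted p = 0.44), and its cofactor genes Mkl1 and Mkl2 rose by 0.61 and 0.79 (adjusted p = 0.033 and 7.2e-04).

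**Figure D5:**
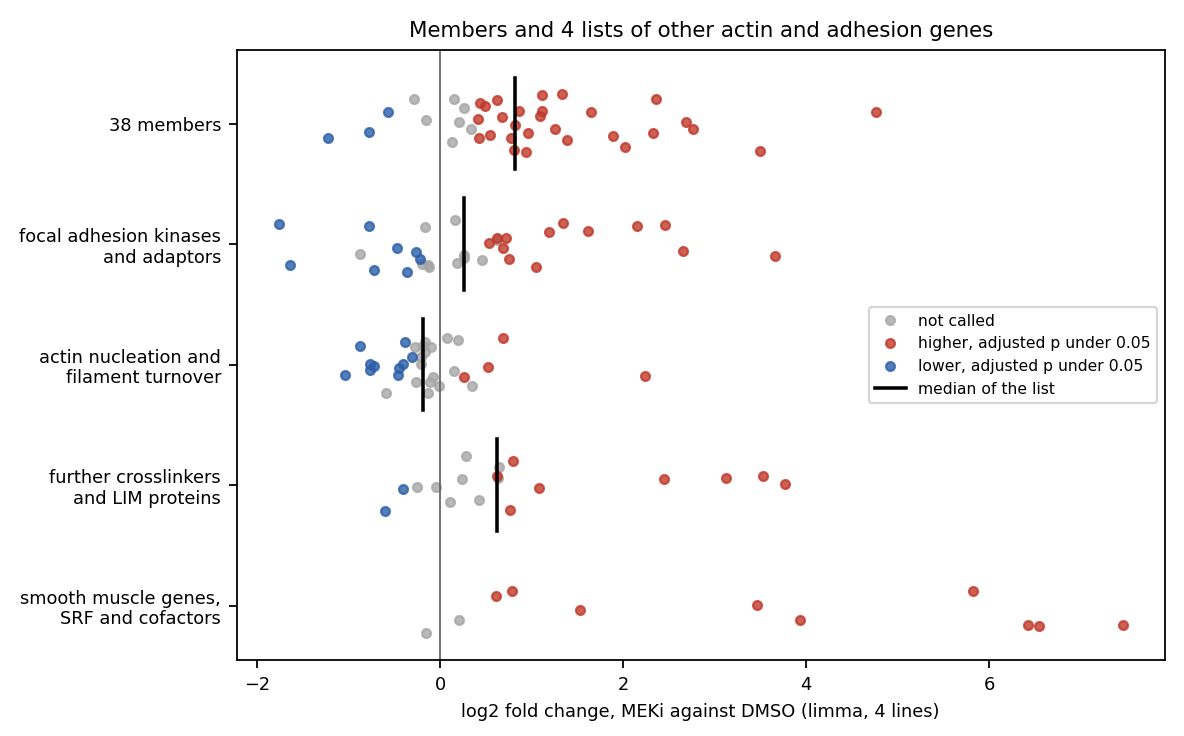
Log2 fold change with MEKi (mean of 4 lines) of the members and of the genes tested in 4 lists of other actin and adhesion genes, with 1 point per gene colored by its call and a black bar at the median of the members and of the first 3 lists. These medians are 0.82 for the members and 0.26, -0.19 and 0.63 for the lists; no median is drawn for the smooth muscle genes, of which 5 were close to 0 counts with DMSO.

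Markers of other cell types were read beside these results. Of 8 pericyte and smooth muscle markers, 4 were tested and called higher, of which Cspg4, Myh11 and Notch3 reached the minimum mean only through their MEKi libraries, so that their calls were nearly fixed. The list summed to 49.3 to 65.7 counts with DMSO and 1033 to 2647 with MEKi. Mcam alone had 51.98, 41.7, 40.6 and 33.1 counts with DMSO and 1139, 2580.5, 2057 and 976 with MEKi (log2 fold change 5.20), and the other 7 markers summed to 13.7 to 22.6 and 57.3 to 208. Kcnj8 stayed under 3 reads in every library, and Myh11 was at 0 in both libraries of line #3. Myh11 and Des of this list are also in the smooth muscle list. The 12 fibroblast markers summed to 2621 to 3059 counts with DMSO and 2490 to 3252 with MEKi. Most of this was Fbln1, and the other 11 markers summed to 107 to 369 with DMSO and 458 to 1263 with MEKi, higher in 4 of 4 lines. Without Col1a1 as well, the 10 markers left summed to 77.2 to 239 and 67.1 to 155. Of the 6 tested, Col1a1 rose (3.60) and Fbln1 fell (-0.60), and Lum was at 0 in every library. The duct markers, 7 tested of 8, summed to 222234 to 350363 counts with DMSO and 114056 to 222637 with MEKi, with 1 that rose and 5 that fell. Leukocyte markers summed to 150.1 to 240.7 counts with DMSO and 236 to 516 with MEKi, where Csf1r rose and Cd3e was under 3 reads throughout, and endothelial markers to 38.1 to 82.9 and 75.5 to 1779, where Tek, through its MEKi libraries alone, and Vwf were called higher and Emcn was under 3 reads throughout. The part of other cell types in the rise of the members was not tested.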

How the data were processed

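PolyA RNA of 8 cultures (4 PDAC cell lines, DMSO or MEKi) was sequenced after TruSeq Stranded mRNA preparation. The submitters' processing notes name CASAVA 2.17, Salmon 0.12, DESeq2 1.18 and the build mm10; the role of each tool is not given in the sources used here. The authors deposited a single table of a normalized signal per gene, called normalized counts here, whose values look like read counts divided by a factor for each library. Whole reads could not be recovered (57.3 to 67.7% of low values were whole multiples of the step, within 0.05 steps), so no count test was run and the depths are estimates.

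Values were analysed as log2(value + 1), in limma 3.58.1 (R 4.3.3) with the cell line as a block, a mean-variance trend, two-sided tests and Benjamini-Hochberg adjustment, over genes with a mean of at least 10. Library totals were not equal (30680091 to 36385719), and a fold change on this scale understates the change of low genes. Samples of the same line deviated together (correlation of deviations from the group means 0.63 to 0.72 in 4 of 4 lines), and both come from 1 line, hence the block. On simulated data with 15193 genes for MEKi against DMSO, the fit recovered 71 of 92 genes changed by 2 and 45 of 92 changed by 1 on the log2 scale. Of the genes left unchanged in the same simulation, 5 were called. Only 92 and 92 of the 15193 genes were changed there, whereas 27.3% of all genes rose and 25.6% fell in these data. The recovery may therefore differ in these data. Positions, transcript words and overlaps came from GENCODE M21 (GRCm38), and promoters from RefSeq (GRCm38.p6). Alternatives were the added value, the filter, the scaling, the variance model, the block and each line left out. All members are named, and of the other lists the 3 genes that rose and the 3 that fell most in all 4 lines, plus genes of the smooth muscle list. An allele of the mouse model and one of the gene lists are not reported here. Members and lists were chosen with earlier results of these data known. Python 3.11.15 with scipy 1.17.1 computed the sign-flip tests.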

Additional observations from a re-analysis of the deposited data

Results flagged for a closer look

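Over the 38 members, 114 sets of 4 values (DMSO, MEKi and log2 fold change) were examined for a value far from the other 3, and 4 were found where chance gives about 5.7 (1 in 20). Fhl1 with MEKi was 1672 normalized counts in line #1 and 59.1 to 332 in the other lines. Myl12a with MEKi was 2730.1 counts in line #1 and 1732 to 1863 elsewhere. Tpm3 with DMSO was 26152 counts in line #3 and 42082 to 43672 elsewhere. The log2 fold change of Pdlim1 was -1.35 in line #3 and -0.42 to -0.26 elsewhere.

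In 5 members the log2 fold change of a single line had the opposite sign to that of the other 3. Of the 38 members, 29 were higher and 4 lower in 4 of 4 lines, as were 5514 and 4938 of all 15888 genes tested. The share of all genes with a single opposed line is not given here. The difference between a single line and the others was not tested, since each line has 1 library per treatment. The log2 fold change was -0.11 for Tgfb1i1 in line #3 against 2.43 to 3.69 in the others, -0.082 for Fhl2 in line #3 against 0.32 to 0.76, and 0.13 for Pxn in line #3 against -0.28 to -0.18. It was -0.086 for Myl12b in line #5 against 0.40 to 0.72, and -0.23 for Tpm2 in line #10 against 0.03 to 0.73. Line #3 accounts for 3 of the 5.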

How the results depend on the processing

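No member changed direction under any of the 14 alternatives. Of the 31 calls, 16 held under every alternative that tested the gene (15 that rose and Fhl3, which fell), and 9 were lost only without the pairing. Synpo2 was not tested at a minimum mean of 50. How many calls over all genes held is not given here. Without the replicate block, which ignores the pairing of libraries by line, 15 members were higher and 1 lower, and 22 and 10 genes of the other lists (13.9% and 14.8% of all genes); Actg1, Myh9, Myh10, Myl6, Myl12b, Tpm3, Tpm4, Cnn2, Flna, Pdlim1, Pdlim5, Fhl1, Lpp, Tgfb1i1 and Ilk lost their call. Leaving out 1 line gave 24 to 28 members that rose and 2 to 4 that fell, beside 21.2 to 26.7% and 20.8 to 25.5% of all genes. In the other lists 35 to 43 genes rose and 15 to 29 fell. Between lines 21 to 26 members differed, but the share of all genes that did so in these fits is not given here. Myh10 against Myh9 turned to 0.049 without line #10 (range -0.29 to 0.049).

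Scaling libraries to equal totals moved the median of all genes from 0.07 to 0.20 and that of the members to 0.94, and quantile normalization gave 1.02 for the members. Under both, Actn4, Fhl2, Tln1 and Parva passed and Pdlim1 did not, and 16 and 14 genes of the other lists fell (20.7% and 26.4% of all genes). Centring libraries on their medians lost Actg1, Myl12b and Flna. Without the variance trend, 16 members differed between lines (11.8% of all genes) and Myl12b, Flna and Pdlim1 were lost. Without a filter, Myl12b and Pdlim1 were lost. With 0.1 or 5 added in place of 1, the fitted change moved from 4.77 to 5.20 or 3.76 for Ldb3 and from 2.68 to 3.01 or 1.95 for Synpo2. The causes of these shifts were not tested. With 4 lines and 1 library each, responses of single lines have no replicate error, and levels under 3 reads (2.33 to 3.72 normalized counts) could not be told from 0.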
